A study of Mus musculus with 24 samples.

Results

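The comparison described here is that of PNx+NaKtide with NaKtide. It asks what partial nephrectomy (PNx) changed in the visceral adipose RNA of mice whose adipocytes had been transduced with the peptide NaKtide. Its 12 libraries were chosen by their labels, as nephrectomised or sham-operated and as carrying NaKtide, out of 24 libraries in the series. Genes were tested where the 24 libraries together held over 10 counts, which left 26116 of 54232 genes.

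PNx removes 1 kidney and ligates part of the other, and is used as a model of renal failure. The PNx+NaKtide group (6 libraries) came from nephrectomised and the NaKtide group (6 libraries) from sham-operated male C57BL6 mice, aged 10 weeks by the description of the series, whereas the methods of the study give a range of ages at purchase. Both groups had received, by intraperitoneal injection, a lentivirus with an adiponectin promoter driving NaKtide linked to green fluorescent protein (GFP), so the sham animals of this comparison carried the transgene as well. The remaining 2 groups, Control (sham) and PNx (nephrectomised), carried GFP alone. They entered through the filter on total counts, the shared estimate of spread, and the side-by-side values and interaction near the end.

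As background, the Na,K-ATPase is the sodium pump of the cell membrane and also binds the tyrosine kinase Src, and NaKtide is a peptide taken from the pump that is meant to keep Src inactive. Adipose tissue stores triglyceride in adipocytes and holds blood vessels, macrophages and fibroblasts between them. In male mice the visceral fat pad most often sampled lies against the epididymis and testis. Expression from the adiponectin promoter is limited to cells that use this promoter and were reached by the virus, and the transgene itself was not analysed here.

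The total counts per library were low and none of 6 library properties separated the groups. Total counts ran from 679250 to 2053464 in NaKtide and from 1281905 to 1907222 in PNx+NaKtide. These are reads assigned to genes, and the numbers of reads sequenced were not examined. Levels are given as CPM, counts relative to the library total. A count of 0 leaves room for 3 counts, for counting error only. Before TMM scaling this is 4.42 CPM in the library of lowest total and 1.46 CPM in that of highest total. By exact permutation of the group labels (two-sided, smallest possible p 0.00216), the Benjamini-Hochberg adjusted p was 0.621 for each of total counts, genes with a count, share of the 100 highest genes, share of genes overlapped on the opposite strand, mitochondrial share and distance from the other libraries of the group. Of the counts, 76.2% to 86.5% per library fell in genes whose exons overlap a gene on the opposite strand. Such genes were 31.1% of the genes tested. The strand setting of the authors' counting is not given in the sources used here. Reads of such a gene and of its partner therefore cannot be told apart, and a count may belong to the partner. Whether the counting took the strand of each gene was not tested. The CPM values include TMM scaling factors, which the levels given for 3 counts leave out. With them the level is higher in the library of lowest total and lower in that of highest total. Each library is 1 mouse by the methods of the study, and p-values measure the spread between these libraries.

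The libraries did not fall into their 2 groups. Across the 7421 genes with a mean of at least 10 CPM, PNx+NaKtide replicates 2, 3 and 4 correlated with each other at Spearman values from 0.949 to 0.96 and with replicates 1, 5 and 6 of the same group at 0.55 to 0.653. They were closer to NaKtide replicates 1 and 3 of the sham group (0.82 to 0.907). PNx+NaKtide replicates 1, 5 and 6 were in turn closer to NaKtide replicates 2, 4 and 5 (0.807 to 0.921) than to replicates 2, 3 and 4 of their own group. NaKtide replicate 6 stood apart from all others, with values from 0.421 to 0.624. These correlations are across genes, which are no replicates, and describe the libraries only. Values without NaKtide replicate 6 or without PNx+NaKtide replicates 2, 3 and 4, a choice made after their values were seen, are therefore given beside the results these libraries weigh on. Leaving out PNx+NaKtide replicates 2, 3 and 4 keeps NaKtide replicates 1 and 3, the sham libraries most like them. That removal is not balanced, and genes high in both sets of libraries then tend to turn lower by construction.

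**Figure D1:**
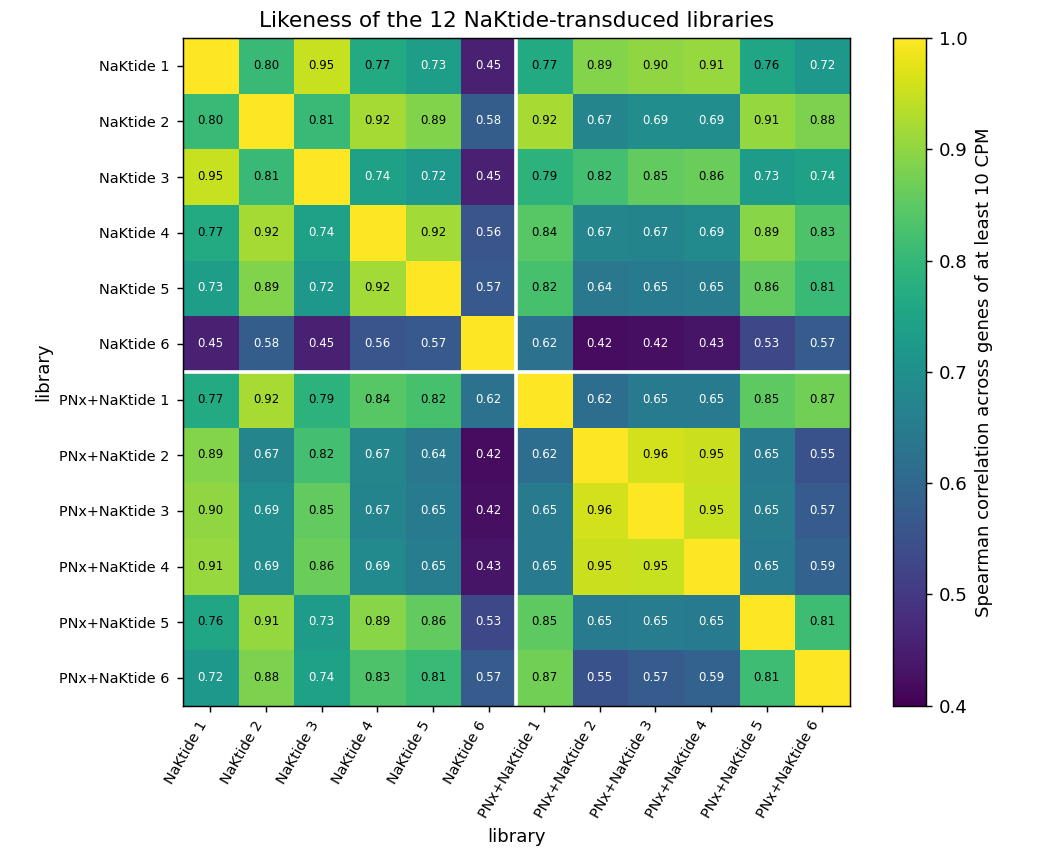
Spearman correlation across the 7421 genes of at least 10 CPM for each pair of the 12 libraries (colour and printed value; both axes list the libraries, white lines part the groups). PNx+NaKtide replicates 2, 3 and 4 form a block (0.949 to 0.96) and NaKtide replicate 6 is unlike the rest (0.421 to 0.624).

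Marker genes differed between these libraries. The fast skeletal muscle list (20 genes) summed to 7515 CPM in NaKtide replicate 6 and to between 82.3 and 141 CPM in the other 11 libraries. The adipocyte list (28 genes) summed to 8401 CPM in that library, to between 546 and 1238 CPM in the other sham libraries and to between 258 and 1886 CPM in PNx+NaKtide. The epididymis list (17 genes, none overlapped on the opposite strand) went the other way, with 36.2 CPM in NaKtide replicate 6 and from 1436 to 3086 CPM in the other 11. Fat-cell and muscle transcripts were thus highest, and epididymal transcripts lowest, in 1 sham library. Within PNx+NaKtide, replicates 2, 3 and 4 had the highest sums of the smooth muscle list (706 to 874 CPM against 293 to 413 CPM in replicates 1, 5 and 6). Their sperm list also stood higher, at 1312 to 1659 CPM against 221 to 280 CPM, and in the sham group NaKtide replicates 1 and 3 reached 1143 and 1368 CPM. In bulk RNA, fewer cells of a type and less RNA per cell cannot be told apart.

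**Figure D2:**
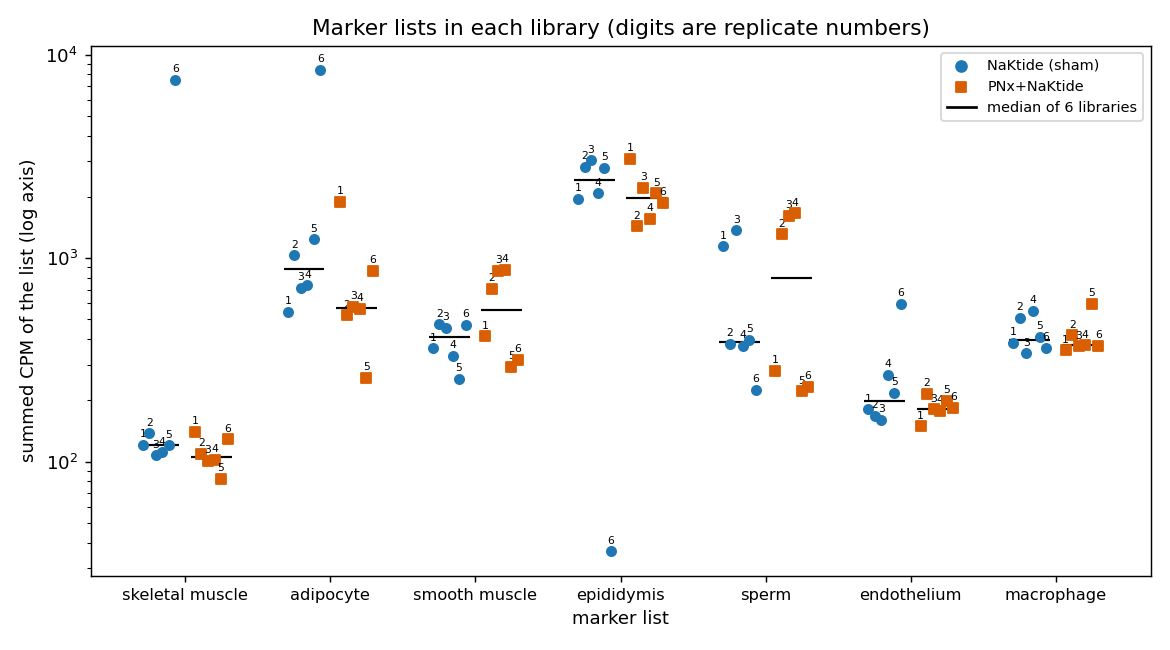
Summed CPM (log axis) of 7 marker lists in each NaKtide (circles) and PNx+NaKtide (squares) library, with replicate numbers above the points and bars at the median of 6 libraries. NaKtide replicate 6 is highest for skeletal muscle (7515) and adipocyte (8401) genes and lowest for epididymis genes (36.2), and PNx+NaKtide replicates 2, 3 and 4 are the highest of their group for smooth muscle and sperm genes, with NaKtide replicates 1 and 3 (1143 and 1368) near them for sperm genes.

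Among the defining adipocyte genes, Adipoq and Pparg had low counts in most libraries. With the strand setting unknown, low counts need not mean low expression. Adipoq (adiponectin, the hormone whose promoter drives the transgene) ranged from 13.3 to 166 CPM with a median of 25.4 in NaKtide and from 2.5 to 49 CPM with a median of 33.1 in PNx+NaKtide. The 166 CPM belonged to NaKtide replicate 6, and the log2 fold change of Adipoq of -0.73 (edgeR, unadjusted p = 0.358, adjusted p = 1.0) was 0.30 without that library. Pparg, the master regulator of fat-cell formation, reached 25.9 CPM in NaKtide replicate 6 and at most 3.32 CPM elsewhere. Gpx5, a glutathione peroxidase secreted by the epididymis, lay between 430 and 1459 CPM in 11 libraries and at 16.2 CPM in NaKtide replicate 6.

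No gene passed the test over all genes. edgeR's quasi-likelihood test called 0 of 26116 genes (0.0%) at an adjusted p under 0.1, and the smallest adjusted p was 0.619. DESeq2 called 2 of the 25767 genes to which it gave an adjusted p (0.00776%), limma voom called 0, and limma on log2(FPKM + 0.1) called 1. At an unadjusted p under 0.05 edgeR had 1067 genes (4.09%). PNx+NaKtide was higher in 392 (1.5%) and lower in 675 (2.58%), and over all genes the median log2 fold change came to 0.04. In what follows, higher and lower are used of this unadjusted threshold, which orders the genes and calls none of them. Counts of higher and lower genes within a list are to be read against the 1.5% and 2.58% of all genes.

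**Figure D3:**
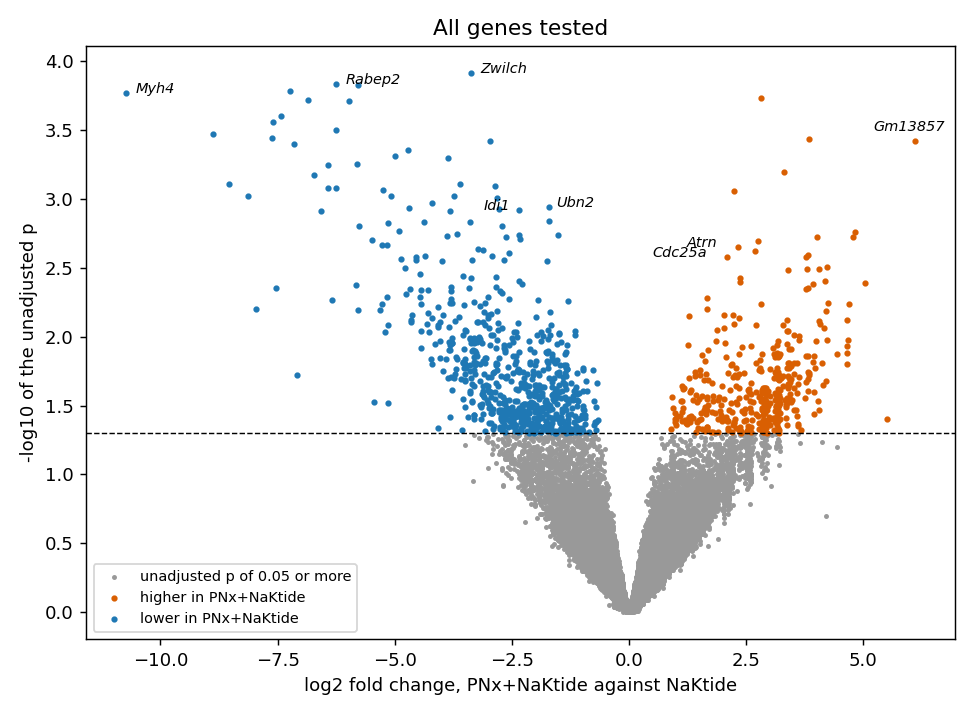
Log2 fold change of PNx+NaKtide against NaKtide (x axis) and -log10 of the unadjusted edgeR p (y axis) for 26116 genes. The dashed line marks an unadjusted p of 0.05, above which 392 genes are higher (orange) and 675 lower (blue), and no gene passed adjustment.

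The 2 sets rested on different libraries. Of the 675 lower genes, 409 (60.6%) had their highest value of the 12 libraries in NaKtide replicate 6, against 15.9% of all genes tested. Of the 392 higher genes, 196 had their 3 highest values of the 12 libraries in PNx+NaKtide replicates 2, 3 and 4, against 9.45% of all genes. Without NaKtide replicate 6 there were 337 higher (1.29%) and 336 lower genes (1.29%), and 483 of the 1067 genes (45.3%) remained. Without PNx+NaKtide replicates 2, 3 and 4 there were 150 higher (0.574%) and 911 lower genes (3.49%), and of these 1061 genes 287 had been among the 1067 (26.9%). The median log2 fold change over all genes was then -0.14.

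The higher genes of lowest p included contractile genes of smooth muscle. Myh11, the smooth muscle myosin heavy chain (chromosome 16, 14194535 to 14291372, GRCm38), had a lowest, median and highest value of 37.4, 64.2 and 101 CPM in NaKtide and of 25.8, 180.0 and 380.0 CPM in PNx+NaKtide. The values of 278, 338 and 380 CPM belonged to PNx+NaKtide replicates 2, 3 and 4, and the other 3 nephrectomised animals lay within or below the sham range. The log2 fold change in edgeR, given here and below with its standard error, was 1.52 ± 0.61 (edgeR, unadjusted p = 0.019, adjusted p = 1.0), and it was -0.11 without those 3 libraries. Cnn1, which encodes the actin-binding protein calponin, had 0.647, 5.35 and 13.9 CPM in NaKtide and 3.33, 17.3 and 50.7 CPM in PNx+NaKtide. The log2 fold change of Cnn1 was 1.86 ± 0.68 (edgeR, unadjusted p = 0.0107, adjusted p = 1.0), and 0.18 without those 3 libraries. Cald1 (caldesmon), which is not on the smooth muscle list, reached 105 to 127 CPM in PNx+NaKtide replicates 2, 3 and 4, and the highest other value was 40.1 CPM in NaKtide replicate 6. Its log2 fold change of 2.37 became -0.93 without the 3 libraries. Of the 11 genes of that list, Myh11 and Cnn1 were higher (2) and 0 were lower, where 1.5% and 2.58% of all genes were. The median log2 fold change of the 11 was 0.75, against 0.04 for all genes, and 0.03 without PNx+NaKtide replicates 2, 3 and 4. Tagln and Actg2, which encode smooth muscle transgelin and actin, are further members of this list, and their values of 69.2 to 147 CPM and 2.59 to 120 CPM overlapped between the groups. Tagln shares most of its exon bases (1349 of 1988) with opposite-strand genes, chiefly Gm48529, and its counts cannot be told from theirs.

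The highest-ranking genes outside this list had the same 3 libraries on top. Atrn (attractin, a membrane glycoprotein known from coat colour mutants; chromosome 2, 130906495 to 131030333) had 1.97, 4.08 and 8.11 CPM in NaKtide and 0.832, 23.3 and 48.6 CPM in PNx+NaKtide. Its log2 fold change was 2.33 ± 0.69 (edgeR, unadjusted p = 0.00225, adjusted p = 0.934), the lowest p of the 14 protein-coding higher genes named by the rule on level and p. PNx+NaKtide replicates 2, 3 and 4 held 48.5, 48.6 and 38.4 CPM, replicate 1 held 8.3 CPM, and replicates 5 and 6 lay inside or under the sham range. Cdc25a, a phosphatase that lets cells enter S phase, had 2.65 to 5.91 CPM in NaKtide and 39.0, 32.1 and 30.7 CPM in those 3 libraries, against 1.11 to 6.79 CPM in the other 3. Cdc25a had a log2 fold change of 2.11 ± 0.64 (edgeR, unadjusted p = 0.00264, adjusted p = 0.942). Rasa2, a GTPase-activating protein of Ras, and Nfx1, a zinc finger protein, had log2 fold changes of 2.35 and 1.21 (0.11 and -0.04 without these libraries), and both had their 3 highest values there. Wfdc16 was the exception. This small protein of the whey acidic protein family rested on PNx+NaKtide replicate 5, with 260 CPM against at most 15.4 CPM in any other library, and its log2 fold change of 3.10 became -0.62 without it.

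Among genes overlapped on the opposite strand, a pair on chromosome 6 had a wide gap. Reads of the pair cannot be told apart, and to which of its genes the counts belong was not tested. Gm13857, a transcribed pseudogene (34419396 to 34445436, minus strand), stood at 12448, 12234 and 12179 CPM in PNx+NaKtide replicates 2, 3 and 4 and at no more than 225 CPM in the other 9 libraries. Over 6 libraries each, the lowest, median and highest values were 4.53, 45.8 and 225 CPM in NaKtide and 6.64, 6179 and 12448 CPM in PNx+NaKtide. The log2 fold change was 6.12 ± 1.48 (edgeR, unadjusted p = 0.000378, adjusted p = 0.619). It was 1 of the 2 genes called by DESeq2, with a log2 fold change of 6.20 and an adjusted p of 0.000184. Without the 3 libraries the edgeR value was -0.22. Its opposite-strand partner, which shares 348 exon bases with it, is Akr1b7 (34412334 to 34423142, plus strand), an aldose reductase-like enzyme known from the adrenal cortex and vas deferens. Akr1b7 had 75.2, 116 and 112 CPM in the same 3 libraries and at most 13.1 CPM elsewhere, a log2 fold change of 3.29 ± 1.31 (edgeR, unadjusted p = 0.0194, adjusted p = 1.0).

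The remaining higher genes of this kind followed the same libraries. Tmem267, a transmembrane protein, had 71.9, 88.6 and 90.6 CPM in PNx+NaKtide replicates 2, 3 and 4 and at most 11.2 CPM in the other 9, with a log2 fold change of 2.69 (edgeR, unadjusted p = 0.00241, adjusted p = 0.942). Its partner Gm48265, which shares 181 exon bases, had 101 to 126 CPM there and at most 40.8 CPM elsewhere. Ttc23 had 63.7 to 69.3 CPM in the 3 libraries, and its partner Synm, which encodes the intermediate filament synemin of muscle, had 29.0 to 38.4 CPM. Ankrd37, Zc3h10 and Slco2a1 (a prostaglandin transporter) had log2 fold changes of 2.80, 1.96 and 1.15. In all, 13 of the 14 named higher genes had their 3 highest values in these libraries. Of the 14, 12 kept an unadjusted edgeR p under 0.05 without NaKtide replicate 6. Just 1 kept it without PNx+NaKtide replicates 2, 3 and 4, namely Wfdc16, which rested on PNx+NaKtide replicate 5.

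**Figure D4:**
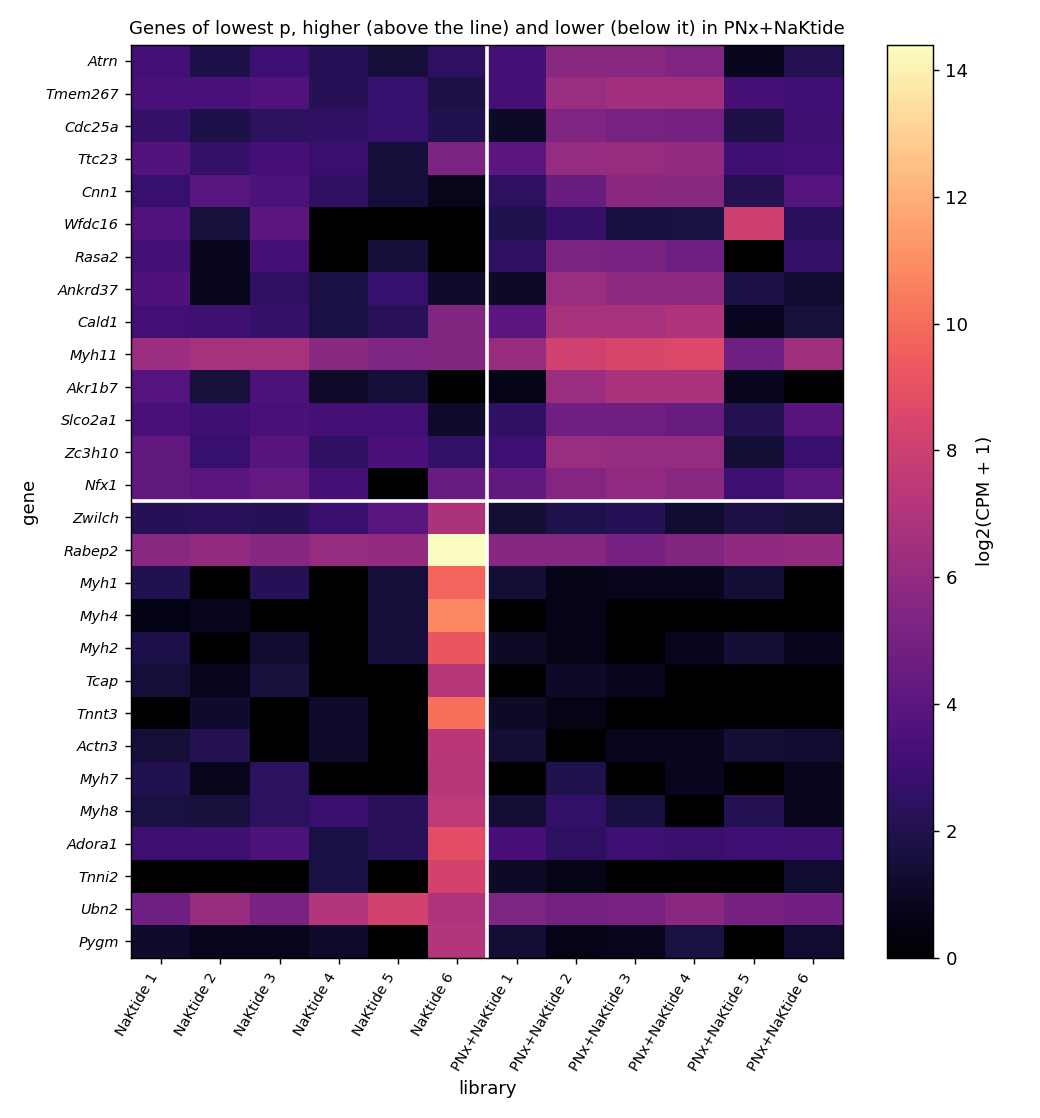
Log2(CPM + 1) (colour) of the 28 genes named by lowest p (y axis) in the 12 libraries (x axis). The 14 higher genes stand above the horizontal line and the 14 lower genes below it, and the vertical line parts NaKtide from PNx+NaKtide. The upper genes are bright in PNx+NaKtide replicates 2, 3 and 4, with Wfdc16 bright in replicate 5, and the lower genes are bright in NaKtide replicate 6, with Ubn2 highest in NaKtide replicate 5.

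The lower genes of lowest p were mostly sarcomere genes of fast skeletal muscle. Myh4, a fast muscle myosin heavy chain (chromosome 11, 67238029 to 67260446), had 1819 CPM in NaKtide replicate 6 and at most 1.97 CPM in the other 11 libraries. PNx+NaKtide held 1 count of it in all, and the pooled count ratio of NaKtide to PNx+NaKtide was 3063 with an exact 95% interval from 549 to 121037, for counting error only and with 2814 of 2817 sham counts in replicate 6. The fitted log2 fold change, which depends on the prior count, was -10.74 ± 2.42 (edgeR, unadjusted p = 0.00017, adjusted p = 0.619), and without NaKtide replicate 6 it was -1.65. The troponin gene Tnnt3 had 1096 CPM in that library and at most 1.33 CPM elsewhere, with 3 counts in PNx+NaKtide and a count ratio of 615 (210.0 to 2988). Tcap, which caps the sarcomeric protein titin, had 141 CPM there and at most 2.09 CPM elsewhere, with 3 counts in PNx+NaKtide and a ratio of 81.9 (27.7 to 400). The other named genes of this kind were Actn3 (alpha-actinin of fast fibres), Myh8 (perinatal myosin), Tnni2 (troponin I) and Pygm (muscle glycogen phosphorylase). They had 138 to 307 CPM in NaKtide replicate 6 and at most 6.05 CPM in any other library, with log2 fold changes of -4.71, -3.86, -6.42 and -4.37.

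For the muscle list as a whole the median log2 fold change was -4.79. Of its 20 genes, 19 were lower and 0 higher, where 2.58% and 1.5% of all genes were. For 3 of the 20 a group was at 0, and with these at the bound that 3 counts allow the median was -4.25. Without NaKtide replicate 6 the median was -0.15, with 0 lower and 1 higher, where 1.29% of all genes were lower and 1.29% higher. Without PNx+NaKtide replicates 2, 3 and 4 it was -5.58.

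Opposite-strand pairs carried the same library, and which gene of a pair its counts belong to was not tested. Rabep2, a regulator of endosome fusion (chromosome 7, 126428759 to 126449245, plus strand), had 45.4, 63.3 and 21606 CPM as its lowest, median and highest value in NaKtide and 30.7, 45.8 and 65.2 CPM in PNx+NaKtide. The highest value belonged to NaKtide replicate 6 and the other 11 libraries overlapped. For Rabep2 the log2 fold change was -6.25 ± 1.39 (edgeR, unadjusted p = 0.000146, adjusted p = 0.619), and -0.28 without that library. The gene opposite to it, with 763 shared exon bases, is Atp2a1 (126445858 to 126463108, minus strand), the calcium pump of fast muscle, which had 422 CPM in NaKtide replicate 6 and at most 50.9 CPM elsewhere. Myh1 and Myh2, further fast myosins, had 855 and 581 CPM in this library, and their antisense partners Myhas and 9430073C21Rik had 10593 and 6661 CPM. Outside this library none of these 4 genes passed 28.3 CPM. Myh7, the slow fibre myosin, had 145 CPM in NaKtide replicate 6 and at most 4.19 CPM elsewhere. Adora1, an adenosine receptor gene with a log2 fold change of -3.60, had 465 CPM there and at most 10.5 CPM elsewhere. Its partner Mybph, a myosin-binding protein, had 822 CPM there and 127 to 285 CPM elsewhere. Ube2c, a ubiquitin-conjugating enzyme of mitosis, had 17188 CPM in NaKtide replicate 6 and 378 to 434 CPM in PNx+NaKtide replicates 2, 3 and 4, against at most 18.2 CPM in the other 8 libraries, and it lies opposite the troponin gene Tnnc2 (185 CPM in NaKtide replicate 6). Its log2 fold change of -3.83 was 4.05 without that library, so its direction hung on a single animal.

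Of the 14 named lower genes, 13 had their highest value in NaKtide replicate 6, and 2 kept an unadjusted p under 0.05 without it. Zwilch, a kinetochore protein that shares 254 exon bases with Lctl, was the other DESeq2 call, with a log2 fold change of -3.53 and an adjusted p of 0.0961. It had 3.49, 5.02 and 117 CPM in NaKtide and 1.54, 2.27 and 3.57 CPM in PNx+NaKtide. In 5 of 6 PNx+NaKtide libraries it lay below the lowest sham value, although most of these values are near the level of 3 counts. Its edgeR log2 fold change was -3.37 ± 0.75 (unadjusted p = 0.000122, adjusted p = 0.619) and -1.26 without NaKtide replicate 6 (unadjusted p = 0.0225). Ubn2, a nuclear protein of the histone H3.3 chaperone complex (chromosome 6, 38433950 to 38524825), had 26.1, 97.2 and 289 CPM in NaKtide and 26.5, 31.5 and 52.2 CPM in PNx+NaKtide. NaKtide replicates 4, 5 and 6 had 139, 289 and 125 CPM, replicate 2 had 69.6 CPM, replicate 3 lay inside the nephrectomised range and replicate 1 just under it. The log2 fold change of -1.70 ± 0.47 (edgeR, unadjusted p = 0.00114, adjusted p = 0.762) stayed between -1.67 without NaKtide replicate 6 and -1.79 without PNx+NaKtide replicates 2, 3 and 4.

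Groups that did not overlap were rare and their gaps small. Among the 7421 genes of at least 10 CPM, 2 (0.027%) had every PNx+NaKtide library above every sham library and 5 (0.0674%) had every one below. These 7 were chosen after their values were seen. Prune2 had 21.7, 27.4 and 33.2 CPM in NaKtide and 39.1, 45 and 86.2 CPM in PNx+NaKtide, a log2 fold change of 0.94 ± 0.47 (edgeR, unadjusted p = 0.0573, adjusted p = 1.0). Its highest values were those of PNx+NaKtide replicates 5 and 6, and without replicates 2, 3 and 4 the log2 fold change was 1.30. The other higher one, the antisense gene model Gm27241, had 12.2 to 30.7 CPM against 3.63 to 11.9 CPM in sham and a log2 fold change of 1.26. Scaf4, a regulator of transcript ends, had 33.3, 37.8 and 45.3 CPM in NaKtide and 15, 24.2 and 29.9 CPM in PNx+NaKtide, a log2 fold change of -0.76 ± 0.30 (edgeR, unadjusted p = 0.0174, adjusted p = 1.0). Ndufs1 (a subunit of respiratory complex I), Tbc1d10b (a GTPase-activating protein of Rab proteins), Upf1 (the helicase of nonsense-mediated decay) and the noncoding Prr33 had log2 fold changes of -0.61, -0.67, -0.70 and -1.68, and Prr33 stood at 262 CPM in NaKtide replicate 6 (-0.66 without it). Gm27241, Ndufs1 and Upf1 overlap genes on the opposite strand (Rfx7, Ino80dos and Cers1).

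The adipocyte list leaned lower through the same sham library. All 28 genes had a negative log2 fold change, with a median of -1.30 against 0.04 for all genes, and 1 was lower (2.58% of all genes were) and 0 higher at the unadjusted threshold. Without NaKtide replicate 6 the median was 0.09. Lep, which encodes the satiety hormone leptin, had 2.70, 16 and 105 CPM in NaKtide and 0.714, 1.25 and 7.75 CPM in PNx+NaKtide. In 4 of 6 nephrectomised animals it lay below the lowest sham value, near the level of 3 counts. The edgeR log2 fold change of Lep was -3.27 ± 1.17 (edgeR, unadjusted p = 0.0103, adjusted p = 1.0), and -2.21 without NaKtide replicate 6 (unadjusted p = 0.0686). Fabp4 (the fatty acid carrier of adipocytes) and Plin4 (a lipid droplet coat protein) had log2 fold changes of -1.66 and -2.20, which without NaKtide replicate 6 were -0.72 and -0.17.

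The list counts given next stand beside 1.5% higher and 2.58% lower of all genes. Within the lipogenesis and cholesterol list (17 genes, 0 higher and 2 lower, median -0.19, and -0.04 without NaKtide replicate 6), Idi1 did not follow that library. This isomerase of the cholesterol pathway (chromosome 13, 8885501 to 8892451) had 5.41, 8.07 and 92.5 CPM in NaKtide and 0.679, 5.54 and 8.36 CPM in PNx+NaKtide. NaKtide replicates 4 and 5 held 38.7 and 92.5 CPM, and the other 4 sham libraries overlapped the nephrectomised ones. The log2 fold change was -2.34 ± 0.65 (edgeR, unadjusted p = 0.0012, adjusted p = 0.762) and -2.53 without NaKtide replicate 6. Idi1 shares 323 exon bases with Gm48574. Me1 (malic enzyme, a source of NADPH), the other lower member, had a log2 fold change of -1.87, or -0.53 without NaKtide replicate 6, with 42.7 CPM there and at most 5.91 CPM elsewhere. In the insulin signalling list (16 genes, 0 higher and 1 lower, median -0.41, and -0.08 without that library) Irs1, the receptor substrate, had a log2 fold change of -1.81, or -0.30 without it, with 36.9 CPM there and at most 4.29 CPM elsewhere. Me1 and Irs1 overlap A330041J22Rik and Gm9747 on the opposite strand.

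The pump and its kinase partners were read against the share of all genes. Of 22 Na,K-ATPase and Src kinase genes, 0 were higher and 1 lower, where 1.5% and 2.58% of all genes were, with a median log2 fold change of 0.04, equal to that of all genes. Src itself had 4.50, 5.98 and 11.9 CPM in NaKtide and 4.16, 6.73 and 12.2 CPM in PNx+NaKtide, and the groups overlapped. Atp1b1, the beta subunit of the pump, had 35.6 to 65.8 CPM in sham and 41.0 to 115 CPM in nephrectomised animals, a log2 fold change of 0.64 ± 0.36 (edgeR, unadjusted p = 0.0901, adjusted p = 1.0). Fxyd3, an accessory subunit, was the lower one, with a log2 fold change of -0.73 (edgeR, unadjusted p = 0.0435, adjusted p = 1.0) and its highest value, 168 CPM, in NaKtide replicate 6. Without that library the value was -0.34 (unadjusted p = 0.296, edgeR). Fxyd3 shares 2059 of its 4850 exon bases with Lgi4 on the opposite strand, and Atp1b1 shares 575 with Nme7, so reads of the partners cannot be told apart from theirs.

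A list of signalling genes was taken from those the study measured by quantitative PCR. Of its 6 members, 0 passed either threshold, and their median log2 fold change was -0.04. The median was 0.52 without NaKtide replicate 6 and -0.67 without PNx+NaKtide replicates 2, 3 and 4. In the latter setting 1 of them (Nos3) was lower, as were 3.49% of all genes. Nos3, the endothelial nitric oxide synthase, had 5.91, 16.5 and 53.6 CPM in NaKtide and 2.5, 34.1 and 86.9 CPM in PNx+NaKtide, with 59.9 to 86.9 CPM in PNx+NaKtide replicates 2, 3 and 4. Nos3 had a log2 fold change of 0.64 ± 0.86 (edgeR, unadjusted p = 0.463, adjusted p = 1.0) and -2.15 without those libraries. NaKtide replicates 1 and 3, which stayed in, had the highest sham values, 53.6 and 41.2 CPM. Nos3 shares 1040 exon bases with Gm15587. Creb1, a transcription factor answering to cyclic AMP, had a log2 fold change of 0.69 ± 0.45 (edgeR, unadjusted p = 0.136, adjusted p = 1.0) at 1.94 to 8.48 CPM. Prkca, Chuk and Tlr4 lay at or under 3.88 CPM in every library and Cdkn1a between 0.0 and 8.92 CPM. Most of these values are within or near what 3 counts give.

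Inflammatory and oxidant-defence genes went in both directions, and their counts stand beside 1.5% higher and 2.58% lower of all genes. Of 21 NF-kB and cytokine genes tested, 2 were higher and 1 lower (median 0.04), all 3 at a few counts. Ptgs2, which encodes the inducible cyclooxygenase, was at 0 in all 6 sham libraries and had 5.02, 3.57 and 2.30 CPM in PNx+NaKtide replicates 2, 3 and 4 and 0 in the other 3. Il10 had at most 1.21 CPM in sham and at most 3.33 CPM in nephrectomised animals. Ccl2, a chemokine that draws monocytes, had 1.33 and 5.17 CPM in NaKtide replicates 2 and 6 and 0 in the other 10 libraries. Of 25 antioxidant genes 0 were higher and 1 lower (median -0.18), and Slc7a11, the cystine transporter, was the lower one (log2 fold change -1.07, or -0.45 without NaKtide replicate 6) with 67.0, 144 and 590 CPM in NaKtide and 71.4, 109 and 123 CPM in PNx+NaKtide. No member was higher or lower in the interferon response (17 genes, median -0.05) and MHC class I presentation (16 genes, median -0.22) lists. Of 14 macrophage genes 0 were higher and 2 lower (median -0.39, or 0.01 without NaKtide replicate 6), among them Cd163, a scavenger receptor, with a log2 fold change of -1.58, or -0.72 without that library, and 49.1 CPM in NaKtide replicate 6 and at most 17.7 CPM elsewhere.

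Lists tied to hormones, time of day and acute stimulation came next, again beside 1.5% higher and 2.58% lower of all genes. Of 13 corticosteroid and renin-angiotensin genes 0 were higher and 0 lower (median -0.16, or 0.37 without NaKtide replicate 6). Of 18 circadian clock genes 0 were higher and 1 lower (median -0.26, or 0.03 without NaKtide replicate 6). Cry2, a repressor of the clock, had 3.94, 5.12 and 26.5 CPM in NaKtide and 1.66, 2.81 and 6.79 CPM in PNx+NaKtide, and 4 of 6 nephrectomised animals lay below the lowest sham value. For Cry2 the log2 fold change was -1.49 ± 0.53 (edgeR, unadjusted p = 0.00939, adjusted p = 1.0) and -0.87 without NaKtide replicate 6, and the gene overlaps D930015M05Rik on the opposite strand. Of 18 immediate early genes 0 were higher and 1 lower (median -0.23), namely Klf2, a transcription factor of endothelium. It had 1.80, 2.21 and 14.2 CPM in NaKtide and 0.714, 0.969 and 1.67 CPM in PNx+NaKtide, so that all 6 nephrectomised animals lay below the lowest sham value, at 1 to 3 counts each. Its log2 fold change was -1.92 ± 0.80 (edgeR, unadjusted p = 0.0225, adjusted p = 1.0) and -0.96 without NaKtide replicate 6.

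The counts in housekeeping lists were read against the 1.5% higher and 2.58% lower of all genes. Of 47 nuclear oxidative phosphorylation genes 0 were higher and 1 lower (median -0.29, or -0.05 without NaKtide replicate 6), namely Cox5a, a subunit of cytochrome oxidase, with a log2 fold change of -1.01, or -0.74 without that library. Of the 13 mRNA genes of the mitochondrial genome 0 were higher and 1 lower (median -0.32, or -0.12 without NaKtide replicate 6), and mt-Atp8, a subunit of ATP synthase, was the lower one. It had 12.6, 24.1 and 61.0 CPM in NaKtide and 4.98, 6.34 and 21.2 CPM in PNx+NaKtide, with 4 of 6 nephrectomised animals below the lowest sham value. Its log2 fold change was -1.49 ± 0.60 (edgeR, unadjusted p = 0.0191, adjusted p = 1.0), and -1.32 without NaKtide replicate 6 (unadjusted p = 0.0431). The list of ribosomal proteins (45 genes, median -0.02), the proteasome list (31 genes, median 0.06), the cilium assembly list (30 genes, median 0.03) and the endoplasmic reticulum stress list (15 genes, median 0.06) had no member higher or lower. The cell cycle list (35 genes, median 0.02) had Cdc25a higher, the ubiquitin ligation list (36 genes, median -0.04) had Ube2c lower, and the heat shock list (14 genes, median -0.07) had the small chaperone Cryab lower (log2 fold change -1.49, or -0.20 without NaKtide replicate 6), with 292 CPM in that library and at most 42.8 CPM elsewhere. Cox5a and Cryab overlap Gm26631 and Hspb2 on the opposite strand.

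The remaining marker lists turned with the libraries left out. The germ cell lists depended on PNx+NaKtide replicates 2, 3 and 4. The sperm list (23 genes, median 0.32) had no member higher or lower, and without those 3 libraries its median was -2.20 with 7 lower, where 3.49% of all genes were lower. NaKtide replicates 1 and 3, with sums of 1143 and 1368 CPM, stayed in, so the removal was not balanced for this list. The meiotic germ cell list (20 genes, median 0.05) had 1 lower, and without PNx+NaKtide replicates 2, 3 and 4 its median was -2.22 with 6 lower. Sycp3, of the meiotic chromosome axis, was that 1 gene, with a log2 fold change of -1.44, or -0.72 without NaKtide replicate 6, where it had its highest value (652 CPM).

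Lists of stromal, blood and brown fat cells moved with NaKtide replicate 6 as well. The fibroblast progenitor list (15 genes, median -1.0) had 3 lower, where 2.58% of all genes were, and its median was -0.17 with 0 lower without that library. Its collagen gene Col6a2 had a log2 fold change of -2.04, or -0.50 without it, with 123 CPM in NaKtide replicate 6 and at most 20.9 CPM elsewhere. The endothelium (14 genes, median -0.50), B cell (9 genes, -0.62) and brown fat (6 genes, -0.44) lists had 1 lower member each and 0 higher, and their medians without NaKtide replicate 6 were 0.19, 0.76 and 0.72 with 0 lower. With the 3 nephrectomised libraries left out these medians were -0.47, -1.17 and -2.64, with 1 lower in each list, where 3.49% of all genes were. Egfl7, an angiogenic factor of endothelium, had a log2 fold change of -1.52, or -0.63 without NaKtide replicate 6, where it had its highest value (431 CPM). Egfl7 and Sycp3 overlap a gene on the opposite strand (Agpat2 and Chpt1). The erythrocyte list (6 genes, median -1.81) had no member higher or lower, and its median was -0.49 without NaKtide replicate 6 and -1.53, with 1 lower, without the 3 nephrectomised libraries.

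Other lists kept small counts. The T cell list (8 genes, median -0.09) had 1 lower, namely Cd3e, with 7.11 CPM in NaKtide replicate 6. Without that library the list had a median of -0.11 with 0 lower. Without PNx+NaKtide replicates 2, 3 and 4 the list median was -0.67 with 1 lower. The epididymis (17 genes, median 0.09), mesothelium (10 genes, 0.32) and kidney (9 genes, 0.00) lists had no member higher or lower. Without NaKtide replicate 6 their medians were -0.17, 0.13 and -0.26, with 1 mesothelium gene higher, where 1.29% of all genes were. With PNx+NaKtide replicates 2, 3 and 4 left out they were 0.37, -1.22 and -0.63. In that setting 1 kidney gene was lower, as were 3.49% of all genes. The steroidogenic cell list (15 genes, median -0.50) had Akr1b7 higher. Without those 3 libraries its median was -1.71 with 0 higher and 1 lower, where 0.574% and 3.49% of all genes were.

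**Figure D5:**
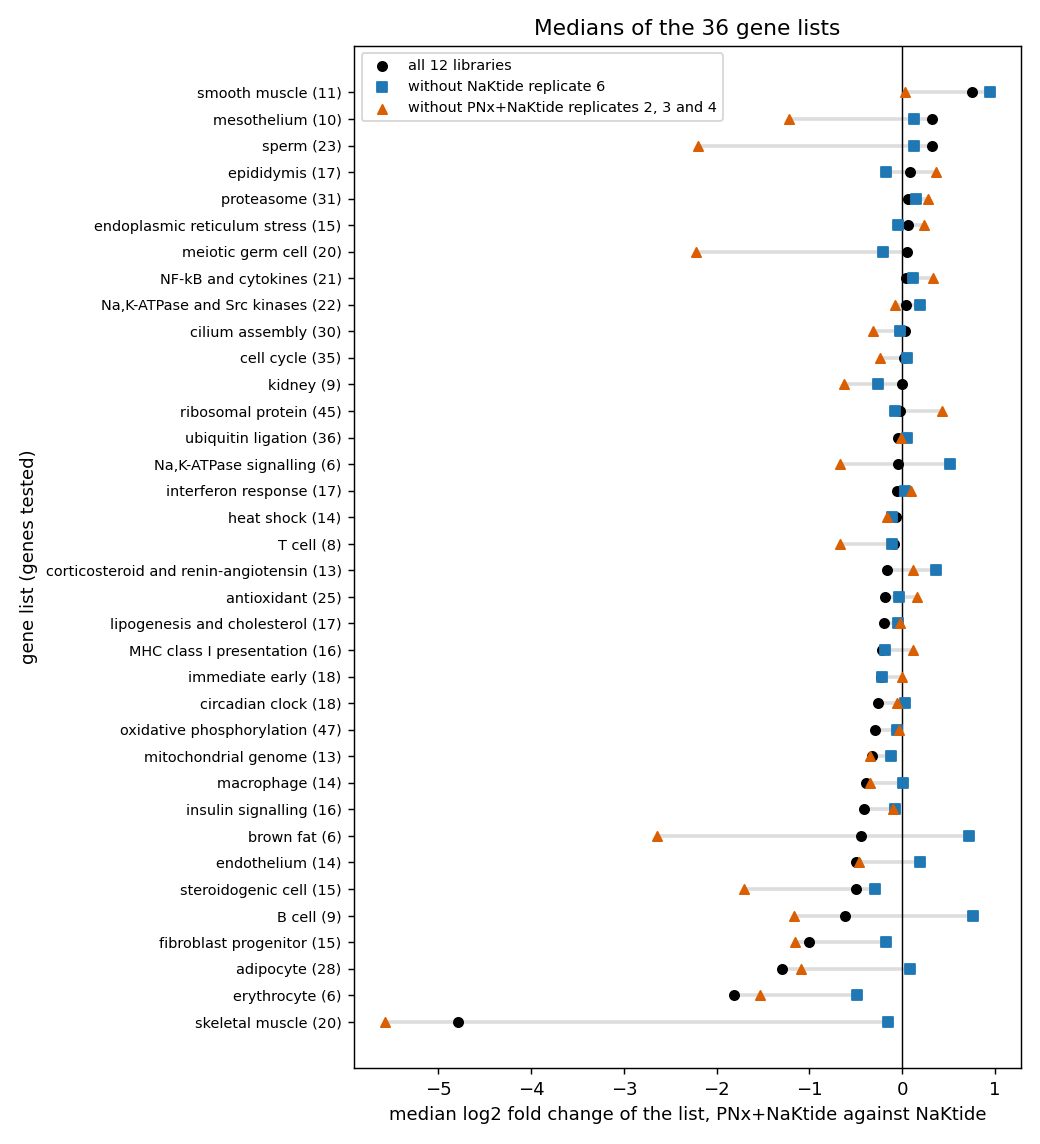
Median log2 fold change of PNx+NaKtide against NaKtide (x axis) for the 36 gene lists (y axis, genes tested in parentheses) with all 12 libraries (black circles), without NaKtide replicate 6 (blue squares) and without PNx+NaKtide replicates 2, 3 and 4 (orange triangles). The skeletal muscle (-4.79) and adipocyte (-1.30) medians move to -0.15 and 0.09 without NaKtide replicate 6, and the sperm median moves from 0.32 to -2.20 without the 3 nephrectomised libraries.

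The same surgery in GFP animals, PNx against Control, shares no library with this comparison and was set beside it. Of the 392 higher genes, 292 (74.5%) had a positive log2 fold change there, as had 60.7% of all genes. Of the 675 lower genes, 296 (43.9%) were negative there, as were 39.3% of all genes. Without PNx+NaKtide replicates 2, 3 and 4 the shares were 44.7% of 150 and 12.2% of 911, with 61.8% and 38.2% of all genes on those sides. Without NaKtide replicate 6 they were 70.0% of 337 and 61.6% of 336, with 60.7% and 39.3% of all genes. In limma voom they were 70.2% of 571 and 77.2% of 943, with 49.2% and 50.8% of all genes, so the share of lower genes went from below to above that of all genes with the libraries and the tool. PNx+NaKtide replicates 2, 3 and 4 correlated with PNx replicates 1, 2 and 3 of the GFP animals at 0.676 to 0.84. Their values with PNx replicates 4, 5 and 6 were 0.388 to 0.689, and with sham NaKtide replicates 1 and 3 they were 0.82 to 0.907. PNx+NaKtide replicates 1, 5 and 6 correlated with PNx replicates 1, 2 and 3 at 0.15 to 0.357. Among single genes, Ankrd37 had a log2 fold change of 3.10 ± 1.04 in GFP animals (edgeR, unadjusted p = 0.00663, adjusted p = 0.135) beside 2.80 with NaKtide, and Zc3h10 had 1.82 beside 1.96. Myh11 and Atrn had -0.08 and 0.31 beside 1.52 and 2.33.

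Whether the effect of surgery differed between the transductions was tested as an interaction. Over all genes edgeR called 0 of 26116 (0.0%) at an adjusted p under 0.1, with a smallest adjusted p of 0.377, and 2421 (9.27%) were under an unadjusted p of 0.05, or 1863 (7.13%) without NaKtide replicate 6. Of the 221 genes held by the naming rule, its partners and the genes singled out, edgeR called 0, DESeq2 9 and limma voom 52. Many of these genes were chosen for their difference with NaKtide, which is 1 side of the interaction, so their counts are not evidence for it. Prune2 had a log2 fold change of -1.24 in GFP animals beside 0.94 with NaKtide, and Ubn2 had 0.17 beside -1.70.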

How the data were processed

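Gene counts were deposited by the authors, who trimmed reads with Trimmomatic 0.38, aligned them to GRCm38 with HISAT2 2.1.0 and counted them per gene with GenomicAlignments, with a strand setting not given in the sources used here. Deposited FPKM values, scaled per gene length and library size by the authors with DESeq2 1.20.0, served as an alternative scale. Another deposited table, of counts divided by size factors, was not used. Symbols, GRCm38 coordinates and opposite-strand exon overlaps came from GENCODE and matched 54165 identifiers (99.9%).

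Genes with more than 10 counts over 24 libraries were fitted in edgeR 4.0.16 (R 4.3.3; TMM, robust quasi-likelihood F-test, 1 mean per group of 4, Benjamini-Hochberg over 26116 genes, adjusted p under 0.1). The other 12 libraries entered through the filter, the shared spread, PNx against Control and the interaction. DESeq2 1.42.0, limma 3.58.1, other filters and scalings, a replicate block and libraries left out in turn were alternatives. The script was tested on simulated counts in which genes of at least 10 CPM were changed by known folds, 50 genes per fold. At an adjusted p under 0.1, edgeR recovered 0% of 2-fold, 50% of 4-fold, 86% of 8-fold and 80% of 16-fold changes. Of its 117 calls 7.69% were false, and of 183 DESeq2 calls 25.1% were false. The simulated libraries did not carry the likenesses between libraries seen here.

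Named by rule were Src, Adipoq and the signalling genes, then protein-coding genes of at least 10 CPM, the 8 of lowest p per direction without and the 6 with opposite-strand overlap (and partners), and up to 4 members per list by p and, for markers, by CPM. The comparison, its gene lists and its tests were chosen with earlier results of these data known. The antisense and pseudogene partners, the DESeq2 calls and the genes without group overlap were added after values were seen.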

Additional observations from a re-analysis of the deposited data

Results flagged for a closer look

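Dixon's test for a sample far from the others was applied in each group to 6 library properties and the summed CPM of 36 lists. It named 20 of 84 groups. Chance names about 1 in 20 where values are independent and normally spread. Some of these lists share genes and the sums were not transformed, so that rate is only a rough guide here. Of the 20 named, 16 were NaKtide replicate 6. It was highest in the share of counts in opposite-strand overlapping genes (86.5%) and in the summed CPM of the adipocyte (8401), skeletal muscle (7515), meiotic germ cell (674), endothelium (598), fibroblast progenitor (495), erythrocyte (245.0), B cell (193) and brown fat (36.2) lists. It was lowest in the epididymis list, also at 36.2 CPM. Among process lists it was highest for ubiquitin ligation (18134), lipogenesis and cholesterol (1765), circadian clock (667), Na,K-ATPase and Src kinases (480.4), NF-kB and cytokines (462) and insulin signalling (250.2). Of the 18134 CPM, 17188 were Ube2c.

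In PNx+NaKtide, replicate 1 was highest for the adipocyte list (1886 CPM) and lowest for ubiquitin ligation (989 CPM), and replicate 5 was highest for the macrophage (598 CPM) and cell cycle (2635 CPM) lists. Replicates 2, 3 and 4, being 3 of 6, cannot be named by a test for a single sample.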

How the results depend on the processing

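At the adjusted threshold DESeq2 gave 2 genes and log2(FPKM + 0.1) 1 gene (Gm16019), and every other setting gave 0. The 1067 genes at the unadjusted threshold became 375 under edgeR's own expression filter (92 higher, 283 lower) and 606 on log2(FPKM + 1) (283 lower), and 295 were lower on log2(FPKM + 0.1). DESeq2 had 210 higher genes. Without 1 library in turn there were 673 to 1333 genes, 266 to 578 higher and 336 to 774 lower, the fewest in total and lower without NaKtide replicate 6. Without PNx+NaKtide replicates 2, 3 and 4, 150 were higher, and 137 without NaKtide replicate 6 as well (both chosen after seeing the data). In the interaction DESeq2 called 9 and voom 52 of the 221 genes, and edgeR 0. Same-numbered libraries correlated at -0.451 to 0.392, so the numbers were not taken as pairs, and the fit with a replicate block had 0 adjusted calls and 748 unadjusted ones, 388 higher and 360 lower. Without a library in turn the difference in total counts ran from -20545 to 254298, and that in log2 distance from -0.0336 to 0.0646.

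Signs of single genes turned mainly with the libraries named above. Without PNx+NaKtide replicates 2, 3 and 4, log2 fold changes were -2.15 for Nos3, -0.11 for Atrn, -0.23 for Cdc25a, -0.93 for Cald1, -0.11 for Myh11, -0.0411 for Nfx1, -1.30 for Ankrd37, -3.21 for Akr1b7, -0.22 for Gm13857 and -0.82 for Zc3h10. Without NaKtide replicate 6 too, they were -2.13 for Nos3, -0.10 for Atrn, -0.28 for Cdc25a, -0.0635 for Cnn1, -0.16 for Rasa2, -0.21 for Myh11, -1.49 for Ankrd37, -3.48 for Akr1b7, -0.47 for Gm13857, -0.11 for Slco2a1 and -0.93 for Zc3h10, and above 0 for Actn3 (0.21), Tnni2 (1.18), Pygm (0.35), Rabep2 (0.0642), Adora1 (0.42) and Plin4 (0.39). Leaving out single libraries gave ranges across 0 for Adipoq (-1.06 to 0.30), Wfdc16 (-0.62 to 3.78), Tnni2 (-6.86 to 0.49), Pygm (-4.66 to 0.32), Adora1 (-3.85 to 0.12) and Ube2c (-4.43 to 4.05). Ube2c was also above 0 in voom (2.63), on log2(FPKM + 0.1) (0.34) and log2(FPKM + 1) (0.34) and with the replicate block (1.86), and Adipoq in voom (0.0497). The cause was not tested. Low total counts limit genes at a few CPM, since 3 counts are 1.46 to 4.42 CPM before TMM scaling.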
